A study of Mus musculus with 12 samples.

Results

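The X-zone marker genes are 6 genes, *Akr1c18*, *Pik3c2g*, *Cyp2f2*, *Thrb*, *Akr1d1* and *Sbsn*. They were picked by symbol from the 39017 genes of the table, and all 6 passed the filter on low counts, which left 14953 genes for testing. RNA of whole adrenals of female mice of a mixed sv129-C57Bl/6 background, aged 10 to 11 weeks, was sequenced in 12 libraries, each taken here as a separate mouse. The 6 Ctrl mice carried AS Cre/+, and the 6 βCat-GOF mice carried AS Cre/+ together with Ctnnb1 fl(ex3)/+. The sample titles also call the controls Wt, but the genotype given for each of them carries Cre, so Cre was present in both groups by that field. It was expressed from the *Cyp11b2* (AS) locus, which drives recombination in zona glomerulosa (zG) cells, and removal of the floxed exon stabilizes β-catenin. The mice are numbered within each group in the order of the records, and the numbers do not pair mice across groups.

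The X-zone is a transient inner zone of the mouse adrenal cortex that lies against the medulla and descends from the fetal cortex. In males it regresses at puberty, and in females it persists until the first pregnancy or is lost slowly in animals that do not breed, so young adult females that have not bred usually still carry one. Its cells express *Akr1c18*, which encodes the hydroxysteroid dehydrogenase that inactivates progesterone. *Pik3c2g* encodes a class II PI3-kinase, *Cyp2f2* a cytochrome P450 best known from airway club cells, *Thrb* the thyroid hormone receptor β, *Akr1d1* the steroid reductase that saturates the A ring of steroids in the β configuration, and *Sbsn* suprabasin, a secreted protein of stratified epithelia. The RNA came from the whole gland, where fewer cells of a type and less RNA per cell cannot be told apart.

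The promoters of 4 members are shown because the 4 genes behaved differently between mice: *Akr1c18* and *Pik3c2g* had the most variable levels and varied together, whereas *Cyp2f2* and *Akr1d1* did not follow them. Each sequence is the 250 bases before a RefSeq transcription start on GRCm38.p6, read 5′ to 3′ on the strand of the gene. Capitals mark matches on either strand to AAGGTCA, the core of the site of the adrenal nuclear receptor NR5A1 (SF-1), to the nuclear receptor half-site AGGTCA that it contains, or to TATAAA. The *Akr1c18* promoter is at chr13:4150647-4150896 on the minus strand, that of *Pik3c2g* (the first of its RefSeq starts) at chr6:139613822-139614071, that of *Cyp2f2* at chr7:27119705-27119954 and that of *Akr1d1* at chr6:37529923-37530172, all 3 on the plus strand.
Akr1c18: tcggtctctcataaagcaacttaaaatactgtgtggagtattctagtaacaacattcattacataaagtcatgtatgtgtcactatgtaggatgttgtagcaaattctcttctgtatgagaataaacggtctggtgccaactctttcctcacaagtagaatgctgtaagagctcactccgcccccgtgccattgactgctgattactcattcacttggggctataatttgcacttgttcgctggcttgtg
Pik3c2g: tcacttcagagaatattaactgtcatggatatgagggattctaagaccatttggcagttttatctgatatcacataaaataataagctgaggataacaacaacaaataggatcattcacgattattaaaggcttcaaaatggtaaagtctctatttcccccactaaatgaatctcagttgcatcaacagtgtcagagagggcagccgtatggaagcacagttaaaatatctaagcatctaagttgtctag
Cyp2f2: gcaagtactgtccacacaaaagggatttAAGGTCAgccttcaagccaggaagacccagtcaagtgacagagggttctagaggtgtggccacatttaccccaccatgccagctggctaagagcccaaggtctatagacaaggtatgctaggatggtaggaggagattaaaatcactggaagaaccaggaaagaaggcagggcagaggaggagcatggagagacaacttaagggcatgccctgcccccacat
Akr1d1: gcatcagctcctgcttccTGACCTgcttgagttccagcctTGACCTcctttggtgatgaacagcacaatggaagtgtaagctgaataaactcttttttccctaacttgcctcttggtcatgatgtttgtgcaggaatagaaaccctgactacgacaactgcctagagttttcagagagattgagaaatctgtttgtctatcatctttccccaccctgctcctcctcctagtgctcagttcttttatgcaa
Neither *Akr1c18* nor the first *Pik3c2g* start held any of the 3 motifs. *Cyp2f2* held AAGGTCA, beginning 222 bases before the start, and *Akr1d1* held the half-site on the opposite strand at 232 and 210 bases before the start. Of the promoters not printed, the first *Thrb* start held AGGTCA at 184 bases, the second *Thrb* start held TATAAA at 167 bases, the second *Pik3c2g* start held TATAAA on the opposite strand at 215 bases, and *Sbsn* held none. Over all 32851 RefSeq promoters, AAGGTCA was present in 4.08%, AGGTCA in 14.0% and TATAAA in 12.4% of windows of the same length, so matches of these lengths are common and describe letters, not binding.

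Between 14090378 and 25625494 reads were counted on genes in Ctrl mice and between 13484675 and 24951480 in βCat-GOF mice. Levels are given as normalized counts, the counts scaled by the median-of-ratios size factors of DESeq2. The targeted gene *Ctnnb1* had 21600 ± 858 of them in Ctrl and 21400 ± 1150 in βCat-GOF mice (SD, 6 per group), and a total per gene is blind to the excision of 1 exon. The labels of 3 pairs of mice, Ctrl 1 and 2, Ctrl 3 and 4, and βCat-GOF 1 and 2, share a stem. Fits without the libraries that repeat a stem leave out Ctrl 1, Ctrl 3 and βCat-GOF 1. The study's description of the groups counts separate mice, but the labels do not say what a shared stem marks, so p-values measure the spread between these libraries. All Ctrl labels begin with one number and 5 of the 6 βCat-GOF labels with another, so family or batch and genotype cannot be told apart. Summed zona fasciculata (zF) and medulla markers were present in every library, at 51200 to 106000 and 3970 to 12200 CPM (counts scaled to the same total in each library). Markers of hepatocytes, which express both *Cyp2f2* and *Akr1d1*, reached 78.1 CPM in βCat-GOF 4 and lay between 0.266 and 1.27 CPM in the other libraries.

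Per kilobase of exon, *Akr1d1* and *Akr1c18* had by far the highest medians of the members. The medians in Ctrl were 1210 RPKM (CPM per kilobase of merged exons) for *Akr1d1*, 949 for *Akr1c18*, 200 for *Cyp2f2*, 33.5 for *Sbsn*, 22.4 for *Thrb* and 8.35 for *Pik3c2g*. In βCat-GOF the order was *Akr1c18* at 2560, *Akr1d1* at 1080, *Cyp2f2* at 129, *Sbsn* at 48.8, *Pik3c2g* at 14.4 and *Thrb* at 13.0 RPKM. The ranges of *Akr1d1* and *Akr1c18* overlapped in both groups, and so did the neighbours among *Sbsn*, *Thrb* and *Pik3c2g*. *Akr1c18* and *Cyp2f2* overlapped in both groups, as the lowest *Akr1c18* value was 194 RPKM in Ctrl and 88.3 in βCat-GOF. The highest *Cyp2f2* value was 434 in Ctrl and 312 in βCat-GOF. *Akr1d1*, at 849 RPKM or more in βCat-GOF, stayed above *Cyp2f2* there. *Cyp2f2* and *Sbsn* were the only neighbours in this order whose ranges were apart in both groups: the lowest *Cyp2f2* value was 93.4 RPKM in Ctrl and 68.4 in βCat-GOF, against a highest *Sbsn* value of 57.6 and 61.9.

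*Akr1c18* (ENSMUSG00000021214, chr13:4132615-4150654 on GRCm38, minus strand) differed many-fold between mice of the same genotype. Its normalized counts were 92800, 7500, 4700, 67300, 23600 and 22100 in Ctrl 1 to 6, which is a 19.8-fold range around a median of 22900. In βCat-GOF 1 to 6 they were 2080, 60500, 118000, 18500, 64000 and 74200, a 56.8-fold range around a median of 62200. Both the lowest and the highest of the 12 mice were βCat-GOF, and the groups overlapped widely. In Ctrl 1 the gene alone took 0.456% of all counts, and in βCat-GOF 3 it took 0.53%, against 0.0117% in βCat-GOF 1.

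*Pik3c2g* (ENSMUSG00000030228, chr6:139587221-139969284, plus strand) was as variable and at a much lower level. Ctrl 1 to 6 had 14700, 452, 303, 12000, 1220 and 3000 normalized counts, a 48.6-fold range with a median of 2110. βCat-GOF 1 to 6 had 103, 4610, 7800, 1060, 2720 and 5850, a 75.9-fold range with a median of 3670. Ctrl 1 and 4 were the highest mice and βCat-GOF 1 the lowest, and 5 of 6 βCat-GOF mice fell inside the Ctrl range.

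*Cyp2f2* (ENSMUSG00000052974, chr7:27119909-27133660, plus strand) spanned 3750 to 17600 normalized counts in Ctrl, with a median of 8090, and 2730 to 12800 in βCat-GOF, with a median of 5330. The highest Ctrl mouse for *Cyp2f2* was Ctrl 3, at 17600, the same mouse that had the lowest Ctrl value of *Akr1c18* and *Pik3c2g*. βCat-GOF 4, the library with hepatocyte markers, had 11500 normalized counts, below the 12800 of βCat-GOF 5, in which hepatocyte markers summed to 1.27 CPM. Its *Akr1d1* value, 67700, was also inside the range of the other libraries. The part of liver RNA in these values was not tested. Exons of the antisense gene *Gm15883* cover 13.5% of the *Cyp2f2* exons, and whether counting used the strand is not given in the sources used here.

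*Thrb* (ENSMUSG00000021779, chr14:17660261-18038090, plus strand) was tightly grouped in Ctrl except in 1 mouse. Its normalized counts in Ctrl 1 to 6 were 3430, 3200, 1670, 2950, 3430 and 3440, and in βCat-GOF 1 to 6 they were 1120, 2380, 2350, 1320, 2310 and 1610. All 6 βCat-GOF mice lay below the Ctrl median of 3320 and 3 of them below every Ctrl mouse, while Ctrl 3 lay within the βCat-GOF range.

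*Akr1d1* (ENSMUSG00000038641, chr6:37530173-37568815, plus strand) was the steadiest member. It had 53300 to 83300 normalized counts in Ctrl, with a median of 69900, and 48100 to 79800 in βCat-GOF, with a median of 63000. The highest mouse was thus only 1.56-fold above the lowest in Ctrl and 1.66-fold in βCat-GOF, and the groups overlapped almost completely. *Sbsn* (ENSMUSG00000046056, chr7:30751471-30756134, plus strand) had 3240, 1680, 1670, 4160, 2570 and 2280 normalized counts in Ctrl 1 to 6, and 1570, 2930, 4000, 3530, 3590 and 4580 in βCat-GOF 1 to 6. One βCat-GOF mouse lay above every Ctrl mouse and 1 below. Exons of *Tmem147os* on the same strand cover 7.7% of the *Sbsn* exons.

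**Figure D1:**
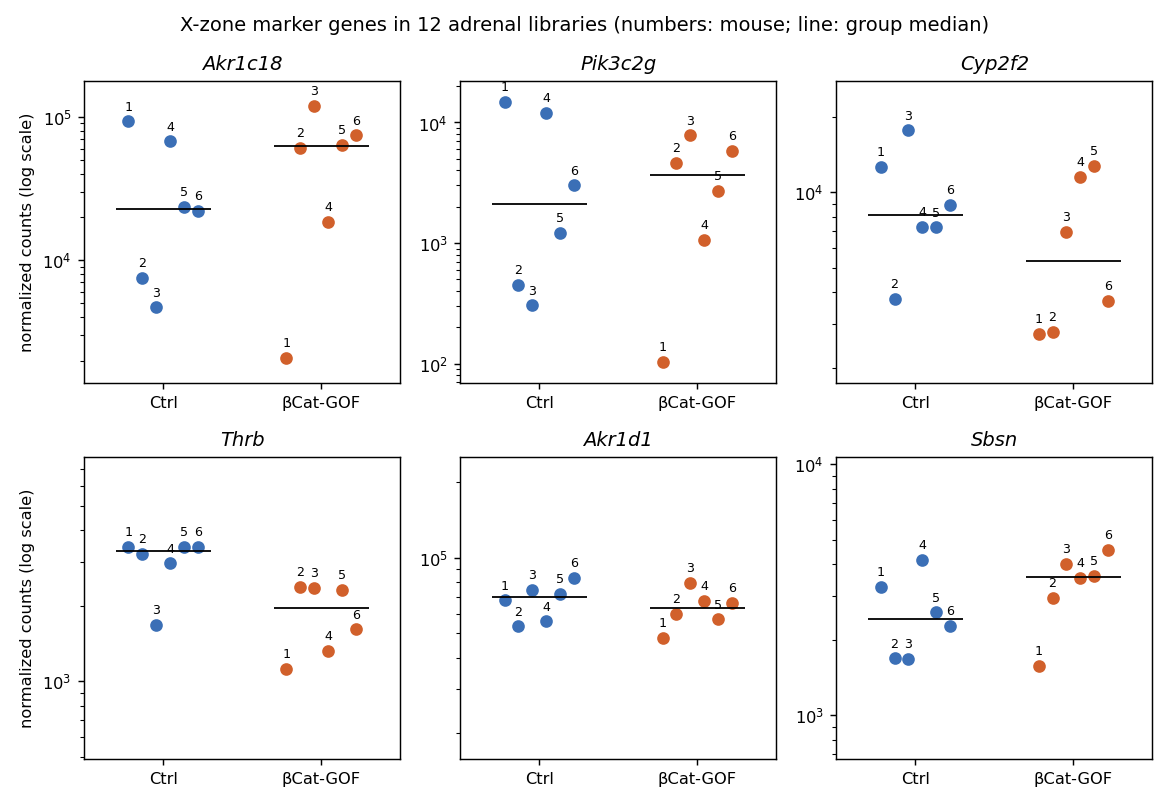
Normalized counts of each X-zone marker gene (log scale) in the 6 Ctrl (blue) and 6 βCat-GOF (orange) mice, with the mouse number over each point and a line at the group median. *Akr1c18* and *Pik3c2g* spread over more than 10-fold within each group, *Akr1d1* stays within 1.56-fold in Ctrl and 1.66-fold in βCat-GOF, and βCat-GOF 1 is the lowest of the 12 mice in every panel, for *Cyp2f2* by a small margin.

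On normalized counts βCat-GOF 1 was the lowest of the 12 mice for all 6 members. For *Cyp2f2* the margin was 2730 against 2770 in βCat-GOF 2, and on log2 CPM the order of these 2 mice was the opposite (7.13 against 7.12). It also had the lowest sum of zF markers, 51200 CPM, the highest sum of zG markers, 3480 CPM, and 6910 CPM of medulla markers, which was the median of its group. Its total of 23006501 counts was the second highest of its group. The part of zone proportions in these low values was not tested. The share of all genes with their lowest value in this library is not given here, so the pattern is not shown to be particular to the members. Without this library the log2 fold changes of the members, βCat-GOF over Ctrl, lay between -0.60 for *Thrb* and 0.88 for *Akr1c18*, and no member passed the test.

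The spread within a group differed between members far more than between genotypes. On log2 CPM, the SD between Ctrl mice was 2.35 for *Pik3c2g* and 1.69 for *Akr1c18*, against 0.76 for *Cyp2f2*, 0.52 for *Sbsn*, 0.41 for *Thrb* and 0.24 for *Akr1d1*. In βCat-GOF it was 2.30, 2.12, 1.0, 0.52, 0.46 and 0.23 in the same order. Among the 14953 genes tested, *Pik3c2g* had rank 15 by SD in Ctrl and 25 in βCat-GOF, and *Akr1c18* had rank 53 and 35, where rank 1 is the most variable gene. The SD of *Akr1d1* lay at the 58.9 percentile of all genes in Ctrl and at the 36.9 percentile in βCat-GOF. Whether βCat-GOF mice vary more than Ctrl mice was tested with limma on absolute deviations from the group median. This called 15 of 14953 genes (0.1%), none of them a member, with 1129 genes (7.55%) at an unadjusted p under 0.05. The mean absolute deviation of *Akr1c18* was 1.26 in Ctrl and 1.30 in βCat-GOF (adjusted p = 0.994, limma), and that of *Cyp2f2*, the member with the lowest adjusted p, was 0.55 and 0.86 (adjusted p = 0.762).

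The libraries whose labels share a stem differed widely in *Akr1c18* and *Pik3c2g*, though less than the most distant mice of their group. *Akr1c18* differed 12.4-fold between Ctrl 1 and 2, 14.3-fold between Ctrl 3 and 4 and 29.0-fold between βCat-GOF 1 and 2. *Pik3c2g* differed by 32.6-, 39.7- and 44.8-fold in the same pairs, whereas *Akr1d1* differed by 1.27-, 1.34- and 1.25-fold. *Cyp2f2* differed by 3.37-, 2.43- and 1.02-fold and *Thrb* by 1.07-, 1.76- and 2.12-fold. In each pair the library with more *Akr1c18* also had more *Pik3c2g*, more *Sbsn* and more *Thrb*, the last by only 1.07-fold between Ctrl 1 and 2. *Cyp2f2* and *Akr1d1* were higher in Ctrl 3 than in Ctrl 4, against the order of *Akr1c18*.

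*Akr1c18* and *Pik3c2g* rose and fell together across mice. After the group means were removed from log2 CPM, Pearson's r was 0.98 over the 12 mice (permutation p = 1e-05, the smallest that 100000 resamples can give, adjusted p = 0.00015 over the 15 pairs of members) and Spearman's rho was 0.96 (permutation, adjusted p = 0.0009). Within the 6 Ctrl mice r was 0.98 (exact permutation test, p = 0.0069, adjusted p = 0.09) and within the 6 βCat-GOF mice it was 0.99 (exact permutation test, p = 0.0028, adjusted p = 0.042), so the value within Ctrl did not pass after adjustment over the 15 pairs. Without the 2 mice farthest from the median of *Akr1c18*, βCat-GOF 1 and Ctrl 3, r was 0.96. Without the libraries that repeat a stem, which are the same 2 mice and Ctrl 1, it was 0.94. The 2 levels did not keep a constant proportion. The normalized count of *Akr1c18* was 5.61 to 19.4 times that of *Pik3c2g* in Ctrl and 12.7 to 23.5 times in βCat-GOF. Ctrl 1, 4 and 6 had the lowest ratios of the 12 mice, at 6.31, 5.61 and 7.36.

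*Sbsn* followed both genes over a narrower range. Its r was 0.90 with *Akr1c18* (permutation p = 0.00076, adjusted p = 0.0046; rho 0.88, permutation p = 0.001, adjusted p = 0.0077) and 0.90 with *Pik3c2g* (permutation p = 0.00092, adjusted p = 0.0046; rho 0.85, permutation p = 0.0021, adjusted p = 0.011). Within Ctrl the 2 values of r were 0.94 and 0.92, and within βCat-GOF 0.89 and 0.88. They were 0.76 and 0.77 without the 2 farthest mice, again βCat-GOF 1 and Ctrl 3. Within βCat-GOF alone the exact permutation tests gave p = 0.051 and 0.054. Without the libraries that repeat a stem, r with *Pik3c2g* was 0.76 (permutation p = 0.065).

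*Thrb* correlated with *Akr1c18* (r = 0.74, permutation p = 0.005, adjusted p = 0.019) and with *Pik3c2g* (r = 0.67, permutation p = 0.014, adjusted p = 0.042). Within Ctrl the 2 values of r were 0.61 and 0.53 (exact permutation test, adjusted p = 0.57 and 0.65). Within βCat-GOF they were 0.83 and 0.79 (exact permutation test, adjusted p = 0.15 for both). But the relation depended on the 2 farthest mice, βCat-GOF 1 and Ctrl 3, which had the lowest *Akr1c18* of all mice, so leaving them out also narrows its range. Without them r fell to 0.37 and 0.22, and Spearman's rho over all mice was 0.53 (permutation p = 0.089, adjusted p = 0.33) and 0.48 (permutation p = 0.12, adjusted p = 0.35).

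*Cyp2f2* and *Akr1d1* did not pass the test with any member. With *Akr1c18*, r was 0.20 for *Cyp2f2* (permutation p = 0.6, adjusted p = 0.72) and 0.32 for *Akr1d1* (permutation p = 0.32, adjusted p = 0.58). *Akr1d1* and *Akr1c18* had an r of -0.12 within Ctrl and 0.70 within βCat-GOF, a difference that was not tested. *Akr1d1* thus stayed level in mice whose *Akr1c18* differed more than 10-fold, and of the 6 markers only *Pik3c2g* and *Sbsn* passed with *Akr1c18* by both Pearson's r and Spearman's rho.

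**Figure D2:**
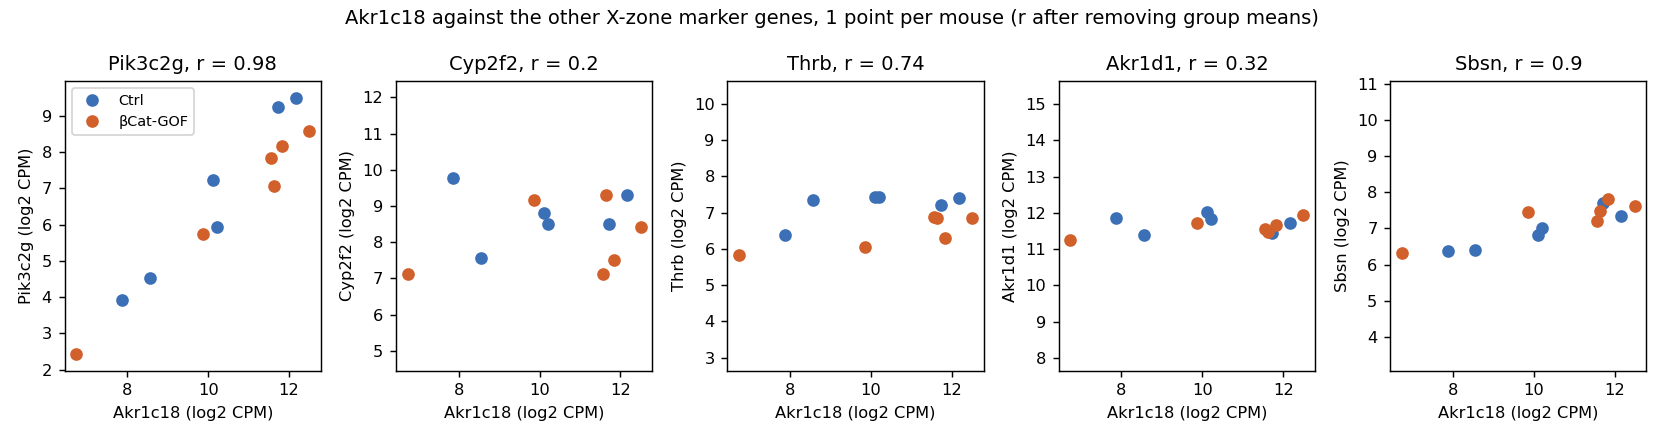
Level of each other X-zone marker gene (log2 CPM, each panel 8 units high) against that of *Akr1c18* (log2 CPM), 1 point per mouse, Ctrl in blue and βCat-GOF in orange, with Pearson's r after removing the group means. Points climb steeply for *Pik3c2g* (r = 0.98), gently for *Sbsn* (r = 0.90) and *Thrb* (r = 0.74), and lie flat for *Akr1d1* (r = 0.32).

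Ranked by the same measure over all 14952 other genes tested, *Pik3c2g* was the 6th most like *Akr1c18*. *Sbsn* had rank 48, *Thrb* 298, *Akr1d1* 2935 and *Cyp2f2* 4371. The 10 highest genes, with r between 0.97 and 0.99, were *Sqle* (squalene epoxidase), *Kng2* (a kininogen), *Cyp51* (lanosterol demethylase), *Nsdhl* (a sterol dehydrogenase), *Idi1* (isopentenyl diphosphate isomerase), *Pik3c2g*, *Fetub* (a fetuin), *Vnn3* (a pantetheinase), *Fdps* (farnesyl diphosphate synthase) and *Mvd* (mevalonate diphosphate decarboxylase). *Kng2* spanned 62.5 to 820 normalized counts in Ctrl and 23.2 to 1280 in βCat-GOF, with its lowest values in Ctrl 3 and βCat-GOF 1, as *Akr1c18* had. Spearman's rho kept 7 of the 10. An r above 0.8 was reached by 158 genes (1.06%). These values are a description over 12 mice of 2 groups, without a test.

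**Figure D3:**
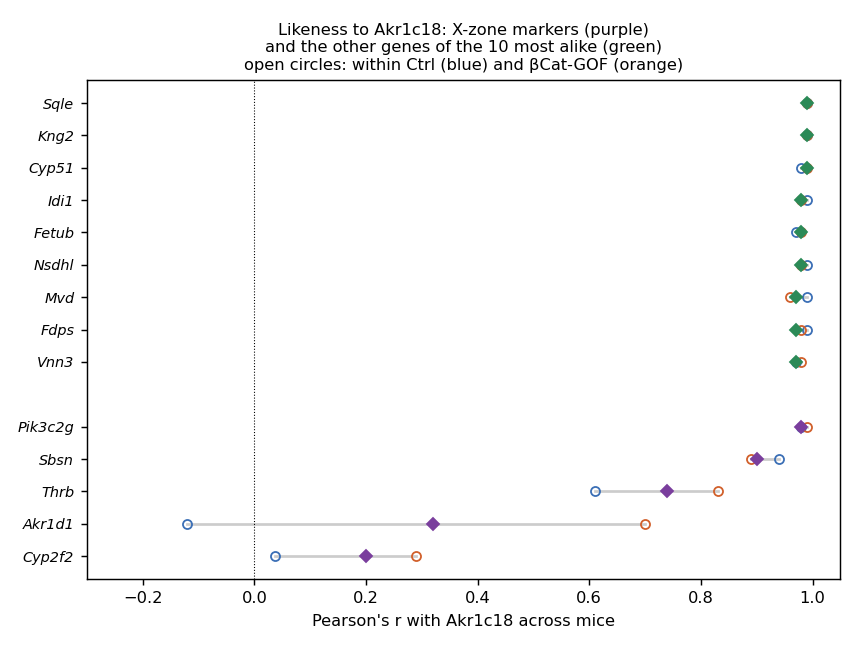
Pearson's r with *Akr1c18* across the 12 mice after removing group means (diamonds) for the other 5 X-zone marker genes (purple) and the other 9 of the 10 most similar genes (green), with r within Ctrl (open blue) and within βCat-GOF (open orange). *Pik3c2g* at 0.98 sits among the most similar genes, while *Akr1d1* at 0.32 ranges from -0.12 in Ctrl to 0.70 in βCat-GOF.

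The sums of other cell types' markers were set beside *Akr1c18* in the same way, in 11 comparisons chosen with the ranking known. The highest r was that of the 7 lipid-laden macrophage markers (r = 0.74, permutation p = 0.013, adjusted p = 0.14; rho 0.70), whose sum was 215 to 475 CPM in Ctrl and 198 to 863 in βCat-GOF. Of these 7 genes *Spp1* alone had an r of 0.93 with *Akr1c18*, and the other 6 had r between -0.24 and 0.41. The r was 0.59 for zF markers (permutation, adjusted p = 0.31), and -0.037 without the 2 mice farthest from the median. It was -0.38 for medulla markers (permutation, adjusted p = 0.40), -0.49 for zG markers (adjusted p = 0.31) and -0.14 for total counts (adjusted p = 0.84). Without the same 2 mice these values were -0.35, 0.0358 and 0.36. No comparison passed after adjustment. Hepatocyte and ovary markers stayed at or under 5.94 CPM in all libraries apart from the 78.1 CPM of hepatocyte markers in βCat-GOF 4.

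Next, the levels of the members were compared between genotypes with edgeR's quasi-likelihood test over all 14953 genes. A gene was called at an adjusted p under 0.05, a fold above 1.4 and a base mean (mean normalized count) above 100. By this rule 222 genes (1.48%) were higher and 130 (0.869%) lower in βCat-GOF. None of the 6 members was called in either direction, and none had groups that did not overlap, as 2.78% of all genes tested had. At an unadjusted p under 0.05, 1 member was lower, *Thrb*, as were 10.7% of all genes tested. The median log2 fold change was -0.32 over the members and 0.000105 over all genes tested. The members' median turned to 0.106 without the libraries that repeat a stem and to 0.000987 without Ctrl 1.

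*Thrb* was the member nearest to a call. It had 3020 ± 687 normalized counts in Ctrl and 1850 ± 568 in βCat-GOF (SD, n = 6). In edgeR's quasi-likelihood test its log2 fold change was -0.72, with an SE of 0.21, an unadjusted p of 0.0042 and an adjusted p = 0.078. DESeq2 called it lower (-0.71, adjusted p = 0.025). So did edgeR without the libraries that repeat a stem (-0.72, adjusted p = 0.034) and without Ctrl 3 (-0.84, adjusted p = 0.026). Both of these edgeR fits leave out Ctrl 3. None of the other fits that leave out 1 mouse called *Thrb* (adjusted p = 0.073 to 0.16, edgeR). A two-sided exact permutation test of *Thrb* alone gave p = 0.019, unadjusted. Thus the direction was the same under all alternatives run, and the call depended on the tool and on which libraries entered.

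For *Akr1c18* and *Pik3c2g* the spread between mice was larger than the difference between the groups. *Akr1c18* had 36300 ± 35600 normalized counts in Ctrl and 56300 ± 41500 in βCat-GOF, which is 0.61 on the log2 scale (SE 0.78, adjusted p = 0.71, edgeR). Leaving out 1 mouse moved this between 0.26, without βCat-GOF 3, and 1.16, without Ctrl 1. *Pik3c2g* had 5280 ± 6380 and 3690 ± 2940, or -0.53 on the log2 scale (SE 0.95, adjusted p = 0.80, edgeR). Its sign turned to 0.11 without Ctrl 1 alone and to 0.07 without the libraries that repeat a stem, with adjusted p = 0.97 in both fits. With an SE of 0.78 and 0.95 log2 units, a difference of a similar size was not detectable in these genes with 6 mice per group.

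The other members did not pass either. *Cyp2f2* had 9570 ± 4890 normalized counts in Ctrl and 6740 ± 4470 in βCat-GOF, or -0.52 on the log2 scale (SE 0.43, adjusted p = 0.53, edgeR), which turned to 0.14 without the libraries that repeat a stem. *Sbsn* had 2600 ± 963 and 3370 ± 1030 (log2 fold change 0.36, SE 0.25, adjusted p = 0.45, edgeR). *Akr1d1* was the most precisely measured, with 67800 ± 11500 and 63100 ± 10800 (log2 fold change -0.12, SE 0.15, adjusted p = 0.71, edgeR).

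**Figure D4:**
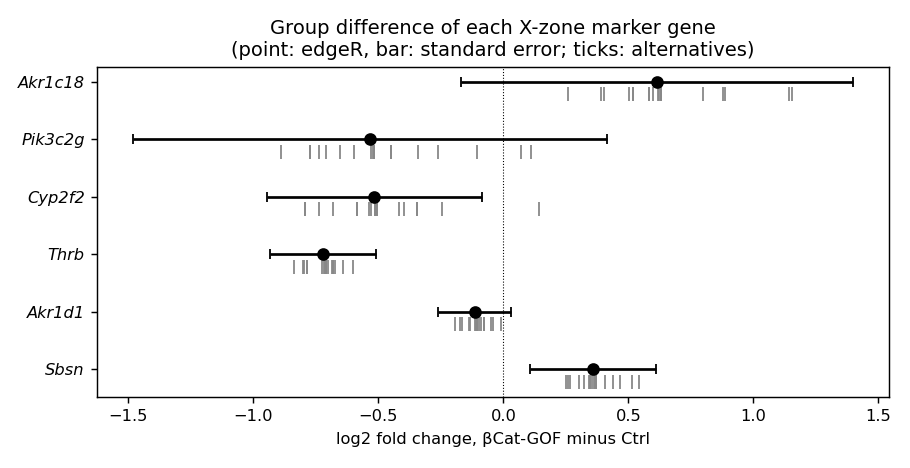
Log2 fold change of each X-zone marker gene, βCat-GOF over Ctrl, from edgeR (point) with its standard error (SE, bar), and the value under each alternative (grey ticks). The bar of *Thrb* (-0.72, SE 0.21) lies below 0 with every tick, and ticks of *Pik3c2g* and *Cyp2f2* fall on both sides of 0.

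Genes around each member were compared from lists of its pathway. The counts called in all these lists stand beside 1.48% of all genes tested called higher and 0.869% called lower. In lists this small, 0 or 1 call does not set a list apart from that share. Of 17 regulators of the X-zone and adrenal cortex, 15 were tested and none was called. The largest differences at a base mean above 100 were those of *Esr1*, the estrogen receptor α (log2 fold change -0.67, adjusted p = 0.26, edgeR), *Acvr1c*, an activin receptor (0.35, adjusted p = 0.60), and *Nr0b1* (DAX-1), the nuclear receptor that represses NR5A1 (-0.32, adjusted p = 0.40). Of 21 steroid reductases and aldo-keto reductases related to *Akr1c18* and *Akr1d1*, 17 were tested, 1 rose and 1 fell. *Akr1b7*, a reductase of aldehydes from cholesterol side-chain cleavage, rose from 44300 ± 7350 to 125000 ± 69800 normalized counts (log2 fold change 1.48, SE 0.38, adjusted p = 0.046, edgeR). This call was lost in 10 of the 12 fits that leave out 1 mouse, all but those without βCat-GOF 1 or 2 (adjusted p = 0.0024 to 0.11, edgeR). *Akr1cl* fell from 62900 ± 10400 to 40300 ± 4210 (log2 fold change -0.65, SE 0.13, adjusted p = 0.013, edgeR), with every βCat-GOF mouse below every Ctrl mouse, and was called in all 12 of those fits.

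Around *Thrb*, 19 of 21 genes of thyroid hormone transport, deiodination, receptors and targets were tested, and 1 was called. *Slc16a10*, a transporter of aromatic amino acids and thyroid hormones, rose from 269 ± 55.3 to 525 ± 219 normalized counts (log2 fold change 0.95, SE 0.24, adjusted p = 0.041, edgeR). Its call was lost in 9 of the 12 fits that leave out 1 mouse, all but those without Ctrl 4, βCat-GOF 1 or βCat-GOF 4 (adjusted p = 0.022 to 0.092, edgeR), and without the libraries that repeat a stem (adjusted p = 0.072). *Thra*, the other thyroid hormone receptor gene, had a log2 fold change of -0.15 (adjusted p = 0.61, edgeR). Around *Pik3c2g*, none of 18 genes of PI3-kinases and phosphoinositide phosphatases was called. The largest values at a base mean above 100 were -0.48 for *Mtm1* (adjusted p = 0.091, edgeR), 0.39 for *Pik3c2b* (adjusted p = 0.45) and -0.30 for *Pik3cd* (adjusted p = 0.42). *Pik3cg* (-0.68, adjusted p = 0.019) missed the call by its base mean of 97.9.

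Around *Cyp2f2*, 8 of 14 xenobiotic cytochromes P450 and partners were tested and none was called, the largest values at a base mean above 100 being 0.43 for *Cyp2d22*, 0.36 for *Cyp2e1* and 0.36 for *Ephx1* (adjusted p = 0.12, 0.75 and 0.38, edgeR). Around *Sbsn*, 2 of 6 epidermal genes were tested and none was called. *Dmkn*, which lies beside *Sbsn* in a cluster of epidermal genes, had a log2 fold change of -0.77 (adjusted p = 0.21, edgeR). The keratins of the basal epidermis, *Krt5* and *Krt14*, had at most 4 and 3 counts in any library, and those of its upper layers, *Krt1* and *Krt10*, at most 18 and 157.

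Markers of other cells of the gland were counted by the same rule. Over all genes tested, 1.48% were called higher and 0.869% lower. Of 10 zG markers 4 were higher in βCat-GOF, and of 10 zF markers 1 was higher (*Mrap*). Of 8 macrophage markers 1 was lower (*Adgre1*), and of 7 lipid-laden macrophage markers 3 were lower (*Gpnmb*, *Mmp12* and *Itgax*) and 1 was higher (*Spp1*). Among the fits that leave out 1 mouse, *Mrap* was called in 1 of 12 (without βCat-GOF 1), *Spp1* in 2, *Adgre1* in 3 and *Mmp12* in 5, while *Gpnmb* and *Itgax* were called in all 12. Of the zG markers, *Agtr1a*, *Agtr1b* and *Vsnl1* were called in all 12 and *Dab2* in 9. *Cyp11b2*, whose locus carries the Cre, was the 1 zG marker with a log2 fold change below 0 (-0.18, adjusted p = 0.82, edgeR). None of the 8 medulla, 5 endothelial, 6 capsule and stroma, 5 tested adipocyte and 1 tested ovary markers was called, and no hepatocyte marker passed the filter. The most abundant markers were *Hsd3b1* and *Star* of the zF, with log2 fold changes of -0.0324 (adjusted p = 0.95) and 0.49 (adjusted p = 0.19, edgeR), *Dab2* and *Wnt4* of the zG (0.75, adjusted p = 0.023, and 0.79, adjusted p = 0.095), and *Chgb* and *Chga* of the medulla (-0.35, adjusted p = 0.50, and -0.47, adjusted p = 0.29). The part of these cell types in the members' values was not tested.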

How the data were processed

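RNA of whole adrenals from 6 Ctrl and 6 βCat-GOF mice was sequenced. The authors trimmed reads, aligned them to mm10 with STAR and deposited counts of uniquely mapping reads per gene from featureCounts 1.4.4. The annotation release and strand setting are not given in the sources used here. The authors also deposited a signal table, the counts divided by 1 factor per library, from which only these factors were taken. The study's own test used DESeq2 1.6.3.

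The counts were tested here with edgeR 4.0.16 in R 4.3.3 (TMM, filterByExpr, quasi-likelihood, two-sided), with Benjamini-Hochberg adjustment over 14953 genes. Cut-offs were an adjusted p of 0.05, a fold of 1.4 and a base mean of 100. Log2 CPM used TMM and a prior count of 2. Spread was tested with limma 3.58.1. Correlations used 100000 permutations over 12 mice, exact pairings within groups (smallest p 0.00139), and SciPy 1.17.1. The exact permutation test of 6 against 6 mice cannot go below 0.00216. The 3 counts that a count of 0 allows equal 0.117 to 0.222 CPM, for counting error only. Positions came from GENCODE M21, promoters from RefSeq. All 6 members matched.

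The members, gene lists and tests were chosen with earlier results of these data known. The genes named are the 6 members, the called genes or else the 3 largest changes at a base mean above 100 in each pathway list, the most abundant markers of the cell types, and the 10 genes most like *Akr1c18*. *Thra*, *Pik3cg*, *Krt1*, *Krt5*, *Krt10*, *Krt14*, *Cyp11b2* as a marker and the called cell markers were named after their values were seen. So were the 11 comparisons of *Akr1c18* with marker sums. Of each cell type only those of the zF, zG and medulla are given with values. Alternatives were DESeq2 1.42.0, other size factors, other filters and cut-offs, other prior counts, Spearman's rho, and subsets of the mice. A fit with the factors of the deposited signal was added once the data had been seen. The scripts were tested on simulated data. Copies of genes were searched with blastn 2.17.0. The nearest relative of a member by sequence, *Akr1c20*, was 78.3% identical to *Akr1c18*. Figures were drawn with matplotlib 3.10.9 in Python 3.11.15.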

Additional observations from a re-analysis of the deposited data

Results flagged for a closer look

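The *Thrb* value of Ctrl 3 stood apart from the other Ctrl mice. On log2 CPM its gap to the next mouse was 0.79 of the whole range of its group, above Dixon's critical value of 0.625 for 6 samples. Its 1670 normalized counts compare with 2950 to 3440 in the other 5 Ctrl mice. This was the only one of the 12 sets of values examined (6 genes in 2 groups) in which a mouse passed that limit, and chance flags about 1 set in 20. Ctrl 3 also had the lowest *Akr1c18* and *Pik3c2g* and the highest *Cyp2f2* of its group, without passing the limit for those genes. With Ctrl 3 left out, *Thrb* was called lower in βCat-GOF (log2 fold change -0.84, adjusted p = 0.026, edgeR). Ctrl 3 was flagged by its low *Thrb* value, so leaving it out could only raise the Ctrl mean. That fit is therefore no separate evidence of a difference.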

How the results depend on the processing

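In the exact permutation test the log2 difference of *Thrb* was -0.74, with p = 0.019, unadjusted. That value cannot be set against the threshold on adjusted p, and edgeR on all mice also passed 0.05 before adjustment. With DESeq2 and without the libraries that repeat a stem, the log2 fold change of *Thrb* was -0.71 and -0.72, past the threshold on adjusted p in both. The number of members called lower was 1 with DESeq2 and 1 without those libraries. Leaving out 1 mouse at a time gave *Thrb* -0.84 to -0.60 and 0 to 1 members called, the 1 without Ctrl 3. *Pik3c2g* turned to 0.07 and *Cyp2f2* to 0.14 without the stem repeats. Leaving out 1 mouse gave -0.89 to 0.11 for *Pik3c2g* (above 0 without Ctrl 1), -0.80 to -0.24 for *Cyp2f2*, 0.26 to 1.16 for *Akr1c18* (1.16 without Ctrl 1), -0.20 to -0.0414 for *Akr1d1* and 0.25 to 0.54 for *Sbsn*. The cause was not tested. *Akr1c18*, *Akr1d1* and *Sbsn* kept their direction and their side of the threshold in all 20 alternatives.

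Correlations that changed sign had not passed the test. Without the stem repeats they were -0.00387 (*Akr1c18* and *Cyp2f2*), -0.0599 (*Pik3c2g* and *Cyp2f2*) and -0.29 (*Thrb* and *Sbsn*). Within Ctrl they were -0.12 (*Akr1c18* and *Akr1d1*), -0.10 (*Pik3c2g* and *Akr1d1*), -0.15 (*Thrb* and *Akr1d1*) and -0.22 (*Akr1d1* and *Sbsn*), and within βCat-GOF 0.18 (*Cyp2f2* and *Thrb*). Without the 2 farthest mice they were -0.13 (*Cyp2f2* and *Sbsn*), -0.12 (*Thrb* and *Akr1d1*) and -0.0365 (*Akr1d1* and *Sbsn*).

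DESeq2, run on all 39017 genes without the filter on low counts, called 361 higher and 280 lower. With edgeR these were 222 and 130 of the 14953 genes that passed the filter, so the 2 sets of genes differ. Leaving out 1 mouse gave 144 to 340 higher and 60 to 224 lower, with both lowest values without Ctrl 6 and both highest without βCat-GOF 1. Several of the called pathway and cell type genes lost the call in fits without 1 mouse, as given beside them. DESeq2 called 8 zG markers, 2 zF markers and 2 reductases (lower) in place of 4, 1 and 1. With adjusted p alone, 1 PI3-kinase gene and 2 macrophage markers were lower, in place of 0 and 1. No paired analysis was possible because the labels of the groups share no replicate numbers. With 6 mice per group, the SE was 0.78 log2 units for *Akr1c18* and 0.95 for *Pik3c2g*, which limits the differences detectable in them.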

Other observations

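Enzymes of cholesterol synthesis were among the genes whose levels went with *Akr1c18* across mice. A list of 18 enzymes of the pathway, which does not cover all of its steps, was written after the ranking against *Akr1c18* had been seen, so its values are a description without a test. All 18 were measured. Their r with *Akr1c18* over the 12 mice, after the group means were removed, was 0.74 to 0.99 with a median of 0.95, and 17 exceeded 0.8, against a median of -0.0538 over all genes. Without the 2 farthest mice the range was 0.23 to 0.98, with a median of 0.88. *Sqle*, squalene epoxidase, had 2030, 652, 454, 1910, 958 and 1060 normalized counts in Ctrl 1 to 6 and 332, 1950, 3270, 1300, 2290 and 2320 in βCat-GOF 1 to 6, so its lowest and highest mice were those of *Akr1c18*. *Hmgcs1*, the HMG-CoA synthase of the early pathway, spanned 2710 to 13400 normalized counts with r = 0.96. *Dhcr7*, an enzyme of the last steps, had the lowest r, 0.74, and was the one that depended most on the 2 farthest mice (0.23 without them). None of the 18 was called between genotypes (log2 fold changes 0.11 to 0.68, adjusted p = 0.26 to 0.88, edgeR).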
